A study of Mus musculus with 3 samples.

Results

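The 7 genes of MHC class II antigen presentation followed here in endothelial cells (ECs) sorted from mouse lungs are Cd74, Ciita, H2-Aa, H2-Ab1, H2-Eb1, H2-DMa and H2-DMb1. They were chosen by symbol, and all 7 were among the 32285 genes of the single-cell count matrices. Their transcripts, counted as unique molecular identifiers (UMIs, 1 per captured RNA molecule), were read in barcodes that met an endothelial gate, within classes of endothelial cells gated by marker genes, and in empty droplets.

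MHC class II molecules are heterodimers of an alpha and a beta chain that carry peptides from the endosomal pathway to the cell surface, where CD4+ T cells read them. In mouse, H2-Aa and H2-Ab1 encode the chains of I-A, and H2-Eb1 the beta chain of I-E. C57BL/6 mice lack a working I-E alpha gene, so that H2-Eb1 has no partner chain in this strain. Cd74, the invariant chain, holds the new dimer and steers it to endosomes, H2-DMa and H2-DMb1 form the H2-DM dimer that exchanges the invariant chain fragment for peptide, and Ciita is the transactivator that switches the whole group on, chiefly after interferon-gamma. Professional antigen presenting cells have most class II protein, and capillary endothelium of the lung is known to hold a lower amount.

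There were 3 droplet libraries, 1 per group, from wild-type C57BL/6 mice, given as young adult males in the study's methods. The control library came from lungs taken 6 h after a tail vein injection of phosphate-buffered saline (PBS), and the others from lungs taken 6 h and 30 h after injection of 200000 B16F10 cells, a mouse melanoma line that seeds the lung, in 100 µl. Cells were sorted as Pecam1 positive and Ptprc negative, and melanoma cells were also collected by a dye into the 6 h library. The labels give 2 mice per treatment and the methods another number, animals were pooled, and no barcode was traced to an animal. The 30 h library has no PBS library of its own time, so that time after injection and the cells injected cannot be told apart there. With 1 library per group no test of the groups was possible, and no p-value is given: all intervals below are exact 95% intervals that cover counting error only, not differences between animals.

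Endothelial barcodes had 1000 to 5000 genes, under 20% of UMIs from mitochondrial genes, at least 2 UMIs of Pecam1 and Cdh5 together and 0 UMIs of Lyz2 and Cd79a. The control, 6 h and 30 h libraries had 8949, 8323 and 7583 of them, with median depths of 7717, 7969 and 8639 UMIs. The endothelial genes that the gate does not use were detected in 97.7% to 98.3% (Cldn5), 85.6% to 87.0% (Tek) and 74.3% to 86.4% (Tie1) of them, and Pecam1 and Cdh5, whose detection the gate largely fixes, in 97.9% to 98.8%. Any pair of libraries shared at most 29 barcode sequences. The 6 pan-leukocyte genes on the marker list, none of them at 0, summed to 10.7, 14.9 and 15.4 UMIs per 1000000 UMIs (CPM), against 5963 to 8282 CPM in barcodes with leukocyte markers. The dendritic cell list of 7 genes was at 147 to 172 CPM, nearly all of it Clec9a and Zbtb46. These were each present in 33.5% to 45.2% of endothelial barcodes. Flt3, Xcr1, Cd209a and Itgax were at 0.14 CPM or less, with 0 UMIs of Cd209a in the control library. Ccr7 was highest at 30 h, at 0.125, 0.515 and 1.19 CPM in the 3 libraries, in 0.067%, 0.168% and 0.369% of barcodes. The lung surfactant (AT2) list, none of its 6 genes at 0, was at 116, 109 and 72.0 CPM, and the 5 melanoma genes were at 1.27, 14.5 and 1.03 CPM, the 6 B cell genes at 1.99 to 3.63 CPM and the 7 macrophage genes at 6.66 to 10.8 CPM, with Cd79a and Lyz2 at 0 by the gate. The 2 neutrophil genes were at 1.63, 11.9 and 2.03 CPM and the 4 T cell genes at 0.864, 2.31 and 4.89 CPM. The part of these cells' RNA in the results was not tested directly. Some values are given again below without barcodes that held any UMI of the surfactant list or of 4 leukocyte lists (pan-leukocyte, B cell, dendritic cell and macrophage). No such values were taken for the melanoma, neutrophil and T cell lists.

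Positions on the mouse genome (mm10/GRCm38, GENCODE M21) are given for 6 of the 7 genes, and that of Cd74 (ENSMUSG00000024610) is not reported here. Ciita (ENSMUSG00000022504), the transactivator, is on chr16:10480059-10528418 on the plus strand. The other 5 stand close together in the H2 complex: H2-DMa (ENSMUSG00000037649) on chr17:34119541-34139101, H2-DMb1 (ENSMUSG00000079547) on chr17:34153072-34160230, H2-Ab1 (ENSMUSG00000073421) on chr17:34257689-34269419 and H2-Eb1 (ENSMUSG00000060586) on chr17:34305867-34316674, all on the plus strand, and H2-Aa (ENSMUSG00000036594) on chr17:34282744-34287823 on the minus strand. H2-DMa overlaps Brd2 on the other strand and the annotated locus CR974462.3 on its own strand, H2-Eb1 overlaps Gm20513 and Ciita overlaps Dexi, both on the other strand. H2-DMb1 has a near-identical neighbour, H2-DMb2, which held 5, 10 and 9 UMIs in the 3 libraries. These counts do not show how many reads fit both genes, and the part of such reads in the H2-DMb1 values was not tested.

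Class II promoters are known for an X box, bound by the RFX complex, and a Y box, bound by NF-Y, at a fixed spacing, on which Ciita assembles. The promoter table (RefSeq, GRCm38.p6, 250 bases before to 50 bases after the start) held 4 of the 7 genes: H2-Aa, H2-Eb1, H2-DMb1 and H2-DMa. An X box was searched as CNNGNAAC and a Y box as GATTGG 10 to 30 bases after it, on both strands. The single motifs were common, in 39.1% and 16.1% of 32851 promoters, but the pair in this order was found in 0.277% on either strand and in 0.161% on the strand of the gene. It was present on the gene's strand in H2-Aa, H2-Eb1 and H2-DMb1, and also in H2-Oa and H2-Ob, the H2-DO genes that damp H2-DM in B cells. Neither of the 2 listed starts of H2-DMa held the pair in its window, which says only that these letters were not found there. The windows are shown for the genes whose stretch lies outside annotated exons, with the X box and the Y box in capitals, because they let a high-level pair be read against a neighbour with the same motif and hardly any UMIs:
H2-Aa, chr17:34287852-34287922, minus strand: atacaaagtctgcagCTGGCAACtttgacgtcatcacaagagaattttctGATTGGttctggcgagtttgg
H2-Eb1, chr17:34305758-34305827, plus strand: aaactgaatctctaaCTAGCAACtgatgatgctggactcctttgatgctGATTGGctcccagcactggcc
H2-Ob, chr17:34238800-34238867, plus strand: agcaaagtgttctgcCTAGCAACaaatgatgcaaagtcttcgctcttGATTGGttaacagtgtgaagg

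The spacer between the boxes was 27 bases in H2-Aa, 26 in H2-Eb1 and 24 in H2-Ob, and the X box began 84, 94 and 90 bases before the start. With the same pair of boxes, H2-Ob was at 0.975, 1.05 and 1.66 CPM in the endothelial barcodes of the control, 6 h and 30 h libraries. H2-Oa, whose boxes are 27 bases apart as well, had 0 UMIs in the control and 6 h libraries, which allows up to 3 UMIs, and 4 UMIs at 30 h. The motif pair was thus shared by class II genes at very different levels.

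In the control library the 7 genes together gave 501 CPM in endothelial barcodes (95% interval 495 to 506), from 35920 UMIs. Cd74 alone was 42.0% of these UMIs, H2-Ab1 20.5%, H2-Aa 16.5% and H2-Eb1 11.7%, and the remaining 3 genes were each under 5%. The counts are of 3' ends and are not divided by gene length, so that shares of UMIs, and not concentrations of protein, are compared.

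The transactivator Ciita stood out at 6 h. In control ECs it was at 9.56 CPM (95% interval 8.86 to 10.3), against 18.3 CPM (17.3 to 19.3) in the 6 h library and 10.1 CPM (9.34 to 10.9) in the 30 h library. The 6 h library was higher than both others and the intervals of the others overlapped. The log2 ratio of CPM + 1 to control was 0.87 (0.74 to 0.99) for 6 h and 0.07 (-0.07 to 0.21) for 30 h, and it was -0.80 (-0.93 to -0.67) for 30 h against 6 h. Ciita UMIs were found in 5.63%, 10.2% and 6.53% of the barcodes of these libraries.

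The invariant chain Cd74 was also highest at 6 h, but fell at 30 h below its control level. Control ECs held 210 CPM of Cd74 (207 to 214), ECs of the 6 h library 257 CPM (253 to 260) and those of the 30 h library 118 CPM (115 to 121), so that no intervals overlapped. The log2 ratio to control was 0.29 (0.25 to 0.32) for 6 h and -0.83 (-0.87 to -0.79) for 30 h, and 30 h against 6 h gave -1.11 (-1.15 to -1.08). The share of endothelial barcodes with a Cd74 UMI was 38.6%, 42.0% and 26.4% in the same order, although the 30 h library was the deepest per barcode.

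The I-A chains were highest at 30 h. H2-Ab1 was at 103 CPM (100.5 to 105) in control ECs, 111 CPM (108 to 113) in the 6 h library and 140 CPM (138 to 143) in the 30 h library. H2-Aa was at 82.6, 97.0 and 106 CPM. The log2 ratios of 30 h to control were 0.45 (0.40 to 0.49) for H2-Ab1 and 0.36 (0.31 to 0.41) for H2-Aa, so that the genes whose products Cd74 chaperones were higher in the library in which Cd74 was lower. H2-Eb1, which has no partner chain in these mice, was nearly flat at 58.8, 64.8 and 62.3 CPM, with log2 ratios to control of 0.14 (0.08 to 0.20) for 6 h and 0.08 (0.02 to 0.14) for 30 h.

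The H2-DM chains were also highest at 30 h, with different courses. H2-DMa was at 16.2 CPM (15.3 to 17.2) in control ECs, 16.5 CPM (15.6 to 17.5) in the 6 h library and 25.2 CPM (24.0 to 26.5) in the 30 h library, a log2 ratio to control of 0.03 (-0.09 to 0.14) for 6 h and 0.61 (0.50 to 0.71) for 30 h. H2-DMb1 was at 20.4, 24.1 and 26.3 CPM, with log2 ratios of 0.23 (0.13 to 0.33) and 0.35 (0.26 to 0.45). Counting H2-DMb2 together with it gave 0.23 and 0.36.

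**Figure D1:**
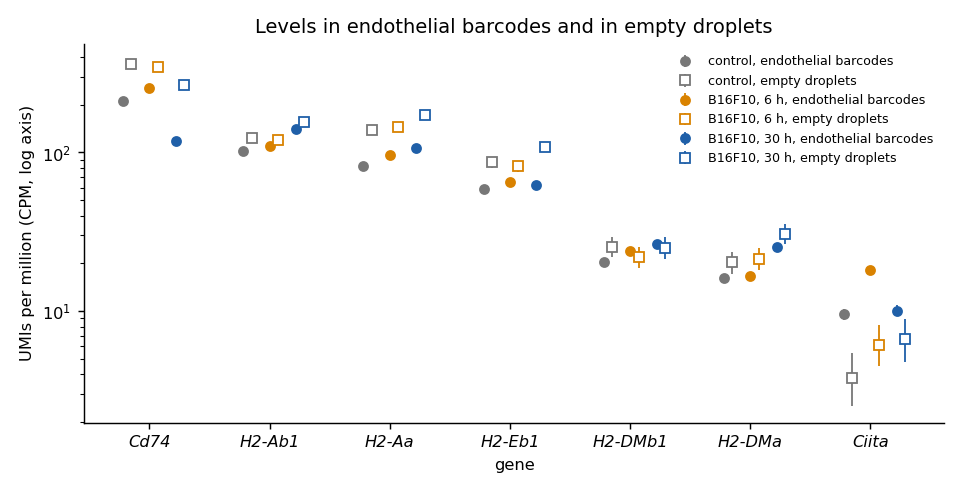
Level of each gene (CPM, log axis) in endothelial barcodes (filled circles) and in empty droplets of 50 to 200 UMIs (open squares) of the 3 libraries, with exact 95% counting intervals. Cd74 was lowest at 30 h, Ciita highest at 6 h, and H2-Ab1, H2-Aa, H2-DMb1 and H2-DMa highest at 30 h in endothelial barcodes, and only for Ciita were the empty droplets of every library below the endothelial barcodes.

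A gene was called when its log2 ratio of CPM + 1 was at least 0.5 in size, among the 10140 genes that averaged 5 CPM or more in the 3 libraries. All 7 genes passed the filter. For 6 h against control 1 of 7 was called higher (Ciita) and 0 lower, where 2.58% of all genes tested were called higher and 1.74% lower. For 30 h against control 1 was called higher (H2-DMa) and 1 lower (Cd74), with 6.05% and 7.56% of all genes called. For 30 h against 6 h 1 was called higher (H2-DMa) and 2 lower (Cd74 and Ciita), with 6.56% and 6.76% of all genes called. The median log2 ratio of the 7 genes was 0.23, 0.35 and 0.13 in these comparisons, beside -0.01, -0.07 and -0.07 over all genes tested. The 30 h and 6 h comparisons with control share the control library.

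The H2-DMa calls were past the limit under 15 of the 16 alternatives tried. The exception was thinning of every barcode to 2000 UMIs, with log2 ratios at 30 h of 0.46 against control and 0.42 against 6 h. The calls of Cd74 and Ciita were past the limit under each of the 16.

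The sum of the 7 genes hid these different courses. From 501 CPM in control ECs it went to 588 CPM (582 to 594) in the 6 h and 489 CPM (483 to 494) in the 30 h library, log2 ratios to control of 0.23 and -0.03. The sign of the latter turned with the scaling and the gate. Without Cd74 the remaining 6 genes summed to 290, 331 and 371 CPM, a log2 ratio to control of 0.19 (0.16 to 0.22) for 6 h and 0.35 (0.32 to 0.38) for 30 h. Cd74 made up 42.0% of the UMIs of the group in control ECs, 43.6% in the 6 h and 24.1% in the 30 h library.

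Barcodes were next divided by markers into general capillary cells (gCap), aerocytes (aCap, the capillary cells specialised for gas exchange), arterial, venous and lymphatic (LEC) cells. Of the endothelial barcodes 6329, 5903 and 4752 were gated as gCap in the control, 6 h and 30 h libraries, 1150, 923 and 1174 as aCap, 207, 184 and 275 as artery and 552, 427 and 523 as vein. LEC barcodes numbered 51, 47 and 42, too few to compare, with 222 (179 to 272), 93.7 (65.2 to 130.3) and 74.6 (50.3 to 107) CPM of the 7 genes. The gCap share was 70.7%, 70.9% and 62.7%, so that the mixture of classes differed at 30 h. The 8 mesenchymal genes on the marker list were at 354, 161 and 104 CPM in artery barcodes. In gCap, aCap and vein barcodes they were at 19.8 to 71.0 CPM. The part of mesenchymal RNA in the artery values was not tested.

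The order of the classes was the same in each library. The 7 genes summed to 681 (659 to 702), 880 (852 to 908) and 764 (741 to 787) CPM in vein barcodes, to 598 (591 to 604), 691 (683 to 698) and 610.1 (602 to 618) CPM in gCap barcodes, to 360.1 (334 to 388), 339 (312 to 368) and 304 (284 to 326) CPM in artery barcodes and to 104 (98.8 to 110.3), 93.7 (87.8 to 99.8) and 110 (104 to 115) CPM in aCap barcodes. The counting intervals of these summed levels did not overlap between neighbouring classes within any of the 3 libraries. Shares of barcodes, each thinned to 2000 UMIs, separated vein from gCap less clearly. For at least 1 UMI the control intervals overlapped, at 47.7% to 56.2% in vein and 46.6% to 49.1% in gCap barcodes. Those of the 6 h and 30 h libraries did not. For at least 5 UMIs the vein and gCap intervals overlapped in all 3 libraries. H2-Ab1 was an exception to the order: in the control library it was at 128 CPM in gCap barcodes against 101 CPM (93.2 to 110) in vein barcodes and 107 CPM (92.6 to 122) in artery barcodes, and the intervals of the last pair overlapped. H2-DMa, too, was not higher in vein than in gCap barcodes in the control (15.8 against 19.3 CPM) and 6 h libraries (18.8 against 19.6 CPM), with overlapping intervals. In the 6 h and 30 h libraries the H2-Ab1 intervals of gCap (132 to 139 and 178 to 186 CPM) and vein barcodes (114 to 135 and 169 to 192 CPM) overlapped.

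**Figure D2:**
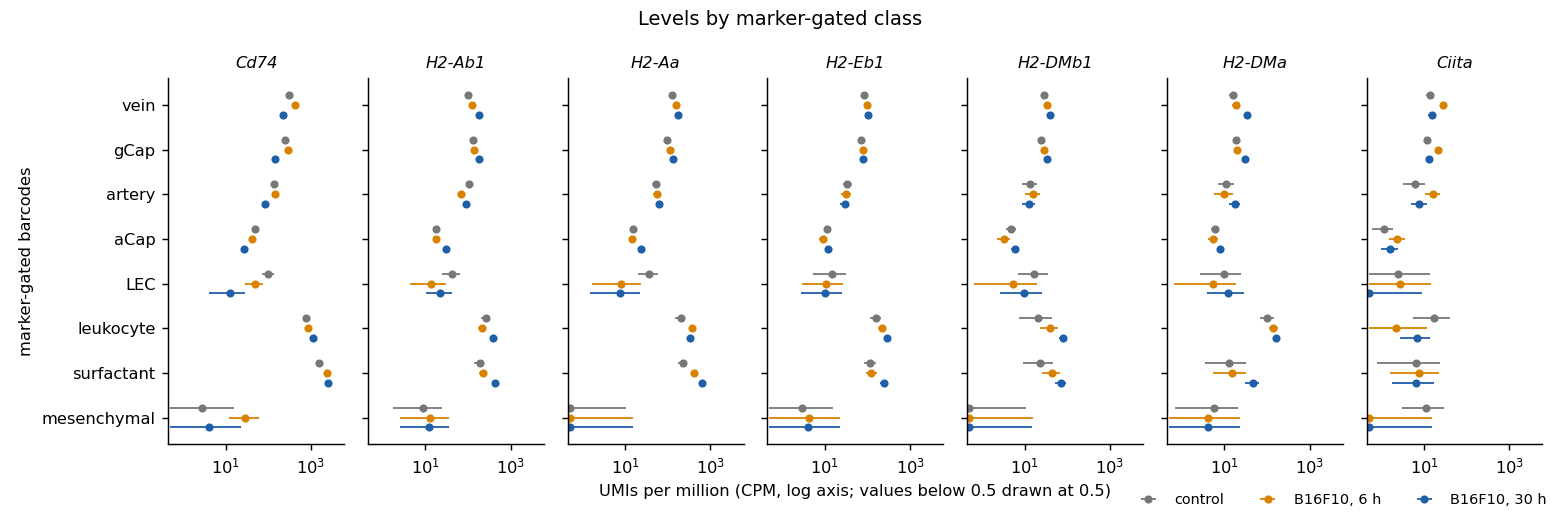
Level of each gene (CPM, log axis; values below 0.5 drawn at 0.5) in marker-gated classes of endothelial barcodes and in barcodes with leukocyte, surfactant and mesenchymal markers, with exact 95% counting intervals. Vein, gCap and artery barcodes stood above aCap barcodes in every panel, and leukocyte and surfactant barcodes held more Cd74 than any endothelial class.

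The lower Cd74 at 30 h was seen within each of the 4 classes as well as over all of them. It went from 246 to 142 CPM in gCap barcodes (log2 ratio -0.79, -0.84 to -0.75), from 314 to 217 CPM in vein barcodes (-0.53, -0.64 to -0.43), from 137 to 82.5 CPM in artery barcodes (-0.73, -0.99 to -0.47) and from 48.2 to 26.5 CPM in aCap barcodes (-0.84, -1.02 to -0.65). At 6 h the classes were less alike, with log2 ratios of Cd74 to control of 0.26 (0.23 to 0.30) in gCap, 0.43 (0.34 to 0.52) in vein, 0.04 (-0.22 to 0.29) in artery and -0.22 (-0.40 to -0.04) in aCap barcodes.

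Ciita was higher at 6 h in each class as well. Its level went from 11.6 to 21.7 CPM in gCap barcodes (log2 ratio 0.84, 0.70 to 0.98), from 13.8 to 28.4 CPM in vein barcodes (0.99, 0.59 to 1.39) and from 6.15 to 16.3 CPM in artery barcodes (1.28, 0.35 to 2.22). In aCap barcodes it was at 1.13 and 2.36 CPM, from 14 and 24 UMIs (0.66, 0.04 to 1.23). At 30 h all 4 intervals of the log2 ratio to control spanned 0.

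H2-Ab1 at 30 h was higher than in control by log2 ratios of 0.51 (0.46 to 0.56) in gCap, 0.83 (0.68 to 0.98) in vein and 0.79 (0.56 to 1.02) in aCap barcodes, whereas artery barcodes gave -0.22 (-0.49 to 0.05). H2-DMa gave 0.67 (0.55 to 0.78) in gCap and 1.05 (0.70 to 1.41) in vein barcodes, with its level in the latter at 15.8, 18.8 and 33.7 CPM, and intervals that spanned 0 in aCap (0.36, -0.02 to 0.74) and artery barcodes (0.59, -0.12 to 1.32). Within gCap barcodes alone, 2 of 7 genes were called higher at 30 h (H2-Ab1 and H2-DMa) and 1 lower (Cd74), where 6.15% and 7.52% of 10016 genes tested were called. At 6 h 1 was called higher (Ciita) and 0 lower, beside 2.94% and 2.04%, and 30 h against 6 h 1 higher (H2-DMa) and 2 lower (Cd74 and Ciita), beside 6.34% and 6.91%.

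**Figure D3:**
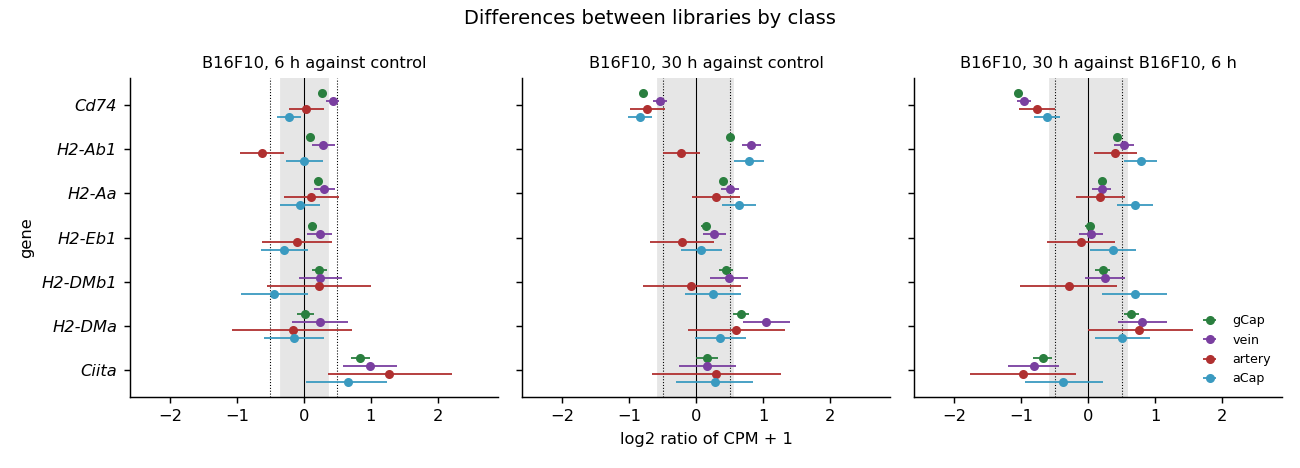
Log2 ratio of CPM + 1 of each gene in gCap, vein, artery and aCap barcodes for the 3 pairs of libraries, with exact 95% counting intervals; the grey band holds the middle 90% of all genes tested in endothelial barcodes and the dotted lines mark the limit of 0.5. The Cd74 points for 30 h against control lie left of the band in all but the vein barcodes (-0.53), and the Ciita points for 6 h against control lie right of it in every class.

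The amount of Cd74 relative to the class II chains was then taken within each library, which leaves out the scaling between libraries. In endothelial barcodes there were 0.860 Cd74 UMIs per UMI of H2-Aa, H2-Ab1 and H2-Eb1 together (0.842 to 0.879) in the control, 0.942 (0.922 to 0.962) in the 6 h and 0.381 (0.372 to 0.392) in the 30 h library. The same ratio was 0.831, 0.908 and 0.362 in gCap barcodes, 1.02, 1.13 and 0.474 in vein barcodes, 0.715, 0.903 and 0.448 in artery barcodes and 1.09, 0.998 and 0.394 in aCap barcodes. In all 4 classes the 30 h interval lay below those of both other libraries. The empty droplets gave 1.04 (0.986 to 1.10), 1.00 (0.947 to 1.06) and 0.608 (0.572 to 0.646), barcodes with surfactant markers 2.87 (2.40 to 3.44), 3.16 (2.78 to 3.61) and 1.88 (1.73 to 2.05) and barcodes with leukocyte markers 1.24 (1.01 to 1.52), 1.09 (0.941 to 1.26) and 1.14 (1.05 to 1.24). The ratio was thus lowest at 30 h in empty droplets and surfactant barcodes too, and not in leukocyte barcodes. The empty droplets are not a source apart from endothelium. They held the 5 endothelial genes of the marker list at 4452, 4261 and 5083 CPM, against 5723, 5717 and 6686 CPM in endothelial barcodes. The part of endothelial RNA in their ratio was not tested. Mesenchymal barcodes, with 1, 7 and 1 Cd74 UMIs, were too few to tell.

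This held for barcodes with many and with few class II UMIs. Among gCap barcodes with 11 or more UMIs of the 3 chain genes, the mean Cd74 count was 11.1 (10.7 to 11.5, 237 barcodes), 12.1 (11.8 to 12.5, 298 barcodes) and 6.02 (5.79 to 6.27, 403 barcodes) in the control, 6 h and 30 h libraries. Among those with 0 chain UMIs it was 0.424, 0.456 and 0.197. In each of the 5 bins the 30 h mean was the lowest of the 3, and the median depth of the 30 h bins was above that of the control bins in the 3 lower bins and below it in the upper 2 (8773 against 8911 and 9389 against 9530 UMIs). At 30 h 71.0% of the barcodes with 11 or more chain UMIs had a Cd74 UMI, against 90.7% and 93.0% in the control and 6 h libraries.

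**Figure D4:**
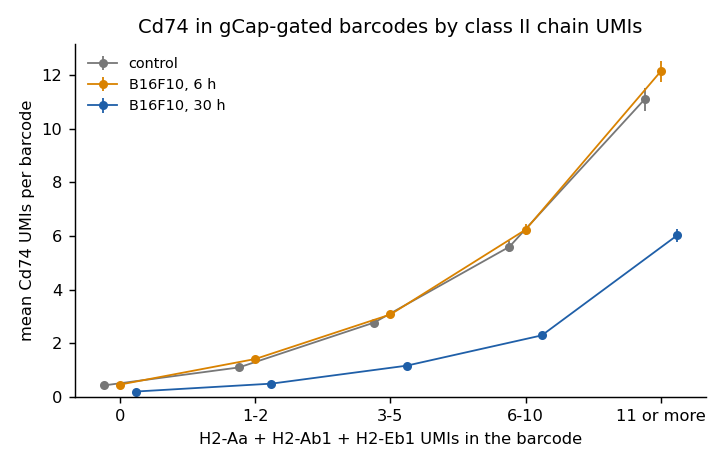
Mean number of Cd74 UMIs per gCap barcode (with exact 95% Poisson interval of the count) against the number of H2-Aa, H2-Ab1 and H2-Eb1 UMIs in the same barcode, for the 3 libraries. The control and 6 h lines rise together to 11.1 and 12.1 UMIs, and the 30 h line stays below both in every bin and ends at 6.02 UMIs.

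Class II UMIs were spread unevenly over barcodes. In gCap barcodes the median was 2 UMIs of the 7 genes in each library and the 90th percentile 13, 15 and 14, while the highest barcode held 92, 98 and 88. The 10% of gCap barcodes with the most held 48.1%, 47.0% and 45.7% of all UMIs of the group, and 27.5%, 24.7% and 25.1% of gCap barcodes held 0. With each barcode thinned to 2000 UMIs, which left out 69, 44 and 32 shallower ones, 47.9% (46.6 to 49.1), 50.5% (49.2 to 51.7) and 48.3% (46.9 to 49.8) of gCap barcodes had at least 1 UMI of the group, and 6.34%, 8.65% and 6.97% had at least 5. Unthinned, the shares with at least 1 were 72.5%, 75.3% and 74.9%. The share with at least 5 in the 6 h library (7.95 to 9.40) was above those of the others. In vein barcodes it was 7.97% (5.85 to 10.6), 10.8% (8.0 to 14.1) and 9.56% (7.18 to 12.4), with overlapping intervals.

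**Figure D5:**
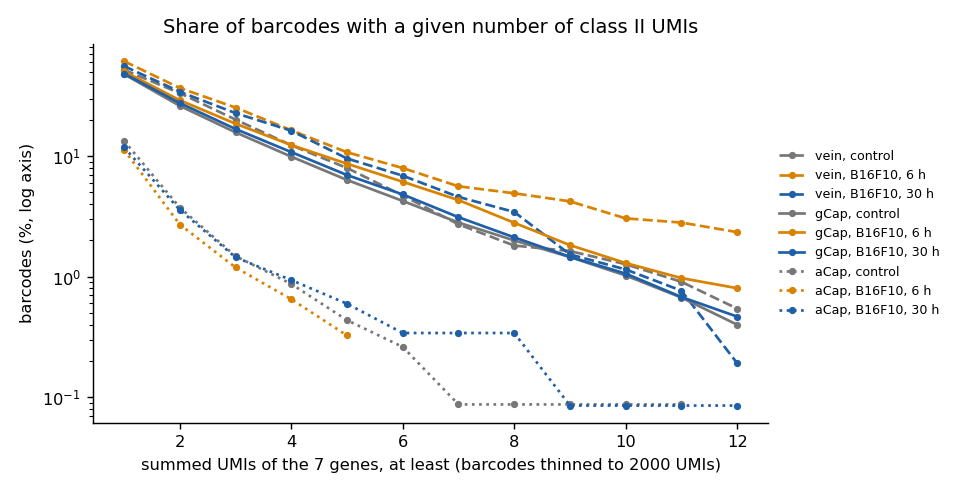
Share of vein, gCap and aCap barcodes (percent, log axis), each thinned to 2000 UMIs, that held at least the given number of UMIs of the 7 genes, in the 3 libraries. The aCap barcodes lie far below gCap and vein barcodes in all 3 libraries (11.3% to 13.4% with at least 1 UMI).

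The invariant chain and the chains of the class II molecule were found together in gCap barcodes more often than the product of their single shares. In gCap barcodes thinned to 2000 UMIs, H2-Aa and H2-Ab1 were both present in 6.10% (5.52 to 6.72), 6.79% (6.16 to 7.47) and 9.36% (8.55 to 10.2) of the barcodes of the 3 libraries, where the product of the single shares was 3.08%, 3.38% and 4.95%. The ratio of the joint share to the product was 1.98, 2.01 and 1.89. For Cd74 and H2-Aa it was 1.93, 1.86 and 2.09, no lower at 30 h, when Cd74 itself was lower. Ciita and H2-Ab1 gave 1.34, 1.42 and 1.19, from 34, 65 and 33 barcodes with both. The interval of this joint share held the product in the control (0.376% to 0.758%, product 0.405%) and 30 h libraries (0.482% to 0.980%, product 0.587%) and lay above it in the 6 h library (0.857% to 1.41%, product 0.783%). For Ciita and Cd74 the interval lay above the product in the control and 6 h libraries and held it at 30 h (0.326% to 0.756%, product 0.370%). In vein barcodes Ciita and H2-Ab1 were found together less often than the product (0.42, 0.28 and 0.75 of it), from only 1, 1 and 3 barcodes with both. Ciita and Cd74 gave 1.45, 1.14 and 2.02 in vein barcodes, from 6, 8 and 7 barcodes with both. These are descriptions over barcodes of the same library and carry no test.

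Free RNA in the droplets was rich in class II transcripts. Empty droplets of 50 to 200 UMIs held the 7 genes at 760.3, 742 and 762 CPM, above the endothelial barcodes of the same libraries. These droplets also held endothelial RNA, as given above. Judged by Sftpc and Scgb1a1 together, which endothelial cells should lack, free RNA made up 2.12%, 4.94% and 5.31% of endothelial UMIs, which corresponds to 3.66%, 6.66% and 11.9% of the endothelial Cd74 level and at most 9.27% of any other of the 7 genes. The markers gave different estimates: Sftpc alone gave 1.97%, 2.11% and 1.60% of endothelial UMIs and Scgb1a1 alone 2.18%, 8.44% and 12.4%, so that the higher share at 6 h and 30 h rests on Scgb1a1. The Scgb1a1 UMIs were not spread evenly. At 30 h the club cell list, which holds this gene, was at 40.1 to 54.6 CPM in gCap, aCap, artery and vein barcodes and at 5251 CPM in the 729 endothelial barcodes of no class, and at 6 h it was at 339 CPM in gCap barcodes and 43.7 to 62.4 CPM in aCap, artery and vein barcodes, beside 1948 and 3481 CPM in the empty droplets of these libraries. The shares over all endothelial barcodes from both markers, or from Scgb1a1, do therefore not describe free RNA within each class. By Sftpc alone free RNA came to 3.39%, 2.84% and 3.59% of the endothelial Cd74 level. Cd74 in the empty droplets was at 362, 346 and 265 CPM, lower at 30 h by a log2 ratio to control of -0.45 (-0.54 to -0.36), and subtracting the estimated free RNA moved the endothelial log2 ratio from -0.83 to -0.91 with both markers, to -0.84 with Sftpc alone and to -1.08 with Scgb1a1 alone. Ciita was at 3.79, 6.12 and 6.65 CPM in empty droplets, below the endothelial level in each library.

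Barcodes of other cells in the same libraries give the background. Barcodes with mesenchymal markers, which should hold little class II, were few (50, 33 and 24) and had 31.4 (15.7 to 56.2), 50.0 (25.8 to 87.3) and 24.8 (9.10 to 54.0) CPM of the 7 genes. The aCap level of 93.7 to 110 CPM lay above these intervals. Thinned to 2000 UMIs, however, the share of barcodes with at least 1 UMI was 13.4%, 11.3% and 11.8% in aCap barcodes and 6.12% (1.28 to 16.9), 3.45% (0.0873 to 17.8) and 16.7% (4.74 to 37.4) in mesenchymal barcodes, whose median depths were 6176, 6828 and 10128.5 UMIs against 10751.5, 10980.0 and 11782.0 in aCap. The aCap shares could not be told from this background. The gCap and vein shares (51.99%, 61.4% and 55.8% in vein barcodes) were above it in all 3 libraries, and the artery shares of 34.0%, 31.5% and 24.4% were above it in the control and 6 h libraries but not beyond counting error in the 30 h library.

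Cd74 was not lower at 30 h in the barcodes with leukocyte or surfactant markers. Barcodes with at least 5 UMIs of the pan-leukocyte list (36, 71 and 69 barcodes) held Cd74 at 763 (665 to 870), 862 (780 to 951) and 1125 (1061 to 1192) CPM, the 6 h interval overlapping that of control. Only 25.0%, 23.9% and 31.9% of these barcodes had a Cd74 UMI, with overlapping intervals. Barcodes with at least 50 UMIs of the surfactant list (17, 15 and 25 barcodes) held Cd74 at 1524 (1389 to 1667), 2445 (2294 to 2604) and 2463 (2340 to 2590) CPM. The cells behind both kinds differed between libraries: the club cell list was at 202899, 164 and 70995 CPM in surfactant barcodes, and in leukocyte barcodes the B cell list was at 825, 71.0 and 608 CPM, the neutrophil list at 4389, 19609 and 4234 CPM and the macrophage list at 11863, 13922 and 18076 CPM. The part of this mixture in the Cd74 levels was not tested. Within endothelial barcodes without any surfactant list UMI the log2 ratio of Cd74 at 30 h to control was -0.79, and in those without any UMI of 4 leukocyte lists it was -0.85.

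Of the other genes of the class II pathway, 19 were on a list and 12 passed the filter, of which 0 were called in either direction in any pair of libraries, beside 1.74% to 7.56% of all genes called in one direction. Their median log2 ratio to control was -0.0011 for 6 h and -0.03 for 30 h. They included the factors that bind the X and Y boxes: Rfxank at 10.5, 10.4 and 13.6 CPM, Rfxap at 36.2, 31.7 and 28.1 CPM and Nfya at 28.9, 38.0 and 35.6 CPM. Among endosomal proteases, Ctsl was at 317, 292 and 304 CPM, whereas Ctss, which trims the invariant chain in professional antigen presenting cells, was below the filter at 1.10, 1.13 and 1.29 CPM.

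The list of interferon-gamma input, the signal that induces Ciita, had 8 of 10 genes above the filter. At 6 h 1 of 8 was called higher and 0 lower, beside 2.58% and 1.74% of all genes, with all 8 log2 ratios above 0 and a median of 0.31. The called gene was Socs1, a feedback inhibitor of the JAK kinases, at 14.5, 23.4 and 11.03 CPM. Against control, 0 were called higher at 30 h and 1 lower (Irf1, the factor that binds the interferon-driven Ciita promoter, at 336, 423 and 233 CPM), and at 30 h against 6 h 3 were called lower (Jak2, Irf1 and Socs1) and 0 higher, beside 7.56% of all genes called lower in the former and 6.76% in the latter comparison. Ifng itself had at most 0.03 CPM in the endothelial barcodes of any library, and Irf8 was below the filter there at 2.80, 6.38 and 3.18 CPM. The level of Ifng in other cells of the lung was not read.

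Class I genes, which load cytosolic peptides, had 14 of 14 above the filter. At 6 h 1 was called higher (Nlrc5, the class I counterpart of Ciita, at 29.6, 44.2 and 21.8 CPM) and 0 lower, beside 2.58% and 1.74% of all genes, and 13 of 14 log2 ratios were above 0. Against control, 0 were called higher at 30 h and 2 lower (H2-Q6 and Tap1), and 30 h against 6 h 5 were called lower and 0 higher, beside 7.56% and 6.76% of all genes called lower. Nlrc5, like Ciita, was highest at 6 h, with log2 ratios to control of 0.56 for 6 h and -0.42 for 30 h.

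Of 7 costimulatory genes, 2 passed the filter. Cd40 was at 27.5, 32.7 and 27.0 CPM and Cd274, which encodes PD-L1, at 20.2, 28.7 and 18.8 CPM. Neither was called against control, and Cd274 was called lower at 30 h against 6 h with a log2 ratio of -0.58, beside 6.76% of all genes. Cd80 and Cd86, the ligands through which professional antigen presenting cells engage CD28, were at 0.37 CPM or less in all 3 libraries.

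The genes whose level over 12 class sums (4 classes in 3 libraries) was most like the summed group were, in order, Gpr182, Ephb4, 6430548M08Rik, Gch1, B4galt5, Frmd4a, Cadm1, Cd93, Rps3a1 and Palm, with Pearson correlations of log2(CPM + 1) from 0.98 to 0.97. Gpr182, an endothelial receptor, was at 165, 224 and 148 CPM in gCap barcodes and at 31.1, 34.8 and 25.8 CPM in aCap barcodes. The sums of a class share its markers, and those of a library its depth, and Cadm1 is itself on the gCap marker list. Over single gCap barcodes the correlations were weak, 0.27 at the highest, and 10 genes were among the 20 highest in all 3 libraries. Of these, 5 were of class I: H2-D1, H2-K1, B2m, H2-T23 and H2-Q7. The others were Sema3c, Itm2b, Ucp2, Cd9 and Hpgd.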

How the data were processed

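Droplet single-cell RNA libraries of sorted mouse lung cells were analysed, 1 per group. The deposited files are raw matrices of whole-number UMI counts per gene and barcode, which the authors made with Cell Ranger 7.2.0 on mm10 (the version in the file headers and the submitters' processing notes; the study's methods name an earlier one). The notes also name Seurat 4.4.0 and the methods a later version; Seurat made no value used here. Count settings, such as intronic reads, are not given in the sources used here. Depth was 124085451 to 140601123 UMIs per library over all barcodes and 66113364 to 71759449 UMIs in endothelial barcodes. For each class of a library the UMIs were added up and given as CPM. Intervals are exact Poisson for levels, exact Clopper-Pearson for shares and exact conditional binomial for ratios. They cover counting error only, and those of levels and ratios take UMIs as independent. The variance of the summed member UMIs per endothelial barcode was 11.8, 13.9 and 12.8 times its mean in the control, 6 h and 30 h libraries. Intervals of levels and ratios are therefore too narrow for the sampling of barcodes. The members and all gene lists were chosen with earlier results of these data known, and the class gates (at least 15 UMIs of the aCap list, 5 artery, 8 vein, 3 LEC and 6 gCap, with barcodes of several classes left out) after the marker histograms were seen; shares of classes follow from these gates. The named genes are the 7 members, the fixed lists, the 10 genes most like the summed group over class sums and those common to the 20 highest over gCap barcodes. The gates of leukocyte barcodes (at least 300 genes, 5 pan-leukocyte UMIs and fewer than 10 surfactant UMIs), surfactant barcodes (at least 50 surfactant UMIs) and mesenchymal barcodes (at least 5 UMIs of the list) were set after seeing the data. Doublets were left in and removed in an alternative (Scrublet in scanpy 1.11.5). Python 3.11.15, numpy 2.4.6, scipy 1.17.1 and pandas 2.3.3 were used. The log2 ratios with their calls and intervals, and the thinning, were tested on simulated counts drawn independently. The UMIs of these data were clumped in barcodes, and the intervals were not tested on such counts. The other steps were not tested in this way. Of the gene identifiers 99.8% matched GENCODE M21.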

Additional observations from a re-analysis of the deposited data

Results flagged for a closer look

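For several values the classes of endothelial barcodes had counting intervals on opposite sides of 0, which flagged them; the difference between classes was not tested, since each class comes from 1 library per group. At 6 h against control, the log2 ratio of Cd74 was 0.26 in gCap and 0.43 in vein but -0.22 in aCap barcodes, and that of the 7 genes summed was 0.21 in gCap and 0.37 in vein but -0.16 in aCap barcodes. In the same comparison H2-Ab1 was 0.084 in gCap and 0.29 in vein but -0.63 in artery barcodes, the latter from 208 control and 118 6 h UMIs. At 30 h against control the sum was 0.030 in gCap and 0.17 in vein but -0.24 in artery barcodes, and at 30 h against 6 h it was 0.22 in aCap but -0.18 in gCap and -0.20 in vein barcodes. Without any UMI of the 4 leukocyte lists the aCap sums turned to 0.10 at 6 h against control and -0.17 at 30 h against 6 h, so that their direction rests on the barcodes left out there. The pan-leukocyte list was at 5.64, 6.30 and 5.80 CPM in aCap barcodes of the 3 libraries.

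Barcodes outside the endothelial gate, which the comparisons do not use, held Cd74 above the control level beyond counting error in leukocyte barcodes at 30 h and in surfactant barcodes at 6 h and 30 h, and not in leukocyte barcodes at 6 h (log2 ratio 0.18, -0.06 to 0.42). Cd74 in barcodes with leukocyte markers was at 763, 862 and 1125 CPM (control, 6 h, 30 h), and in barcodes with surfactant markers at 1524, 2445 and 2463 CPM. A Cd74 UMI was found in 9, 17 and 22 of the 36, 71 and 69 leukocyte barcodes, shares whose intervals overlapped. The cells in them differed between libraries: the club cell list was at 202899, 164 and 70995 CPM in surfactant barcodes and the neutrophil list at 4389, 19609 and 4234 CPM in leukocyte barcodes. The sort for Ptprc-negative cells removes most leukocytes, so that those left are not a sample of the leukocytes of the lung.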

How the results depend on the processing

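No paired analysis was possible because each group is 1 library. Of the 336 alternative values for single genes (21 log2 ratios, 16 alternatives each) 323 kept their sign, and of the 96 that belong to the 6 called ratios 94 stayed past the limit; the exceptions were H2-DMa at 30 h with barcodes thinned to 2000 UMIs, which took the count of genes called higher at 30 h from 1 to 0 against control and to 0 against 6 h. With median-of-ratios size factors this count was 2 against control, since H2-Ab1 joined. Size factors shifted all log2 ratios by 0.07 at 30 h against either library. For the sum of the 7 genes at 6 h against control (0.23) the log2 ratio was 0.20 with all barcodes of at least 300 genes, 0.26 without any UMI of the 4 leukocyte lists, 0.20 without any AT2 list UMI, 0.26 thinned to 2000 UMIs and 0.19 without Cd74. At 30 h against control (-0.03) it was -0.067, -0.10 and -0.064 with at least 300 genes, without leukocyte list UMIs and with free RNA subtracted, -0.14 with free RNA by Scgb1a1 alone, and it turned to 0.034 with no Lyz2 and Cd79a exclusion, 0.038 with size factors, 0.0092 when thinned and 0.35 without Cd74. At 30 h against 6 h (-0.27) it was -0.19 with no Lyz2 and Cd79a exclusion, -0.36 without leukocyte list UMIs, -0.22 without AT2 list UMIs, -0.20 with size factors, -0.24 as the mean of each barcode's own CPM, -0.29 with free RNA subtracted, -0.35 with free RNA by Scgb1a1 alone and 0.16 without Cd74. The cause of these shifts was not tested.

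Within classes most values that moved did so without any UMI of the 4 leukocyte lists, a setting that kept 31.9% to 36.7% of endothelial barcodes because Clec9a and Zbtb46 are on the lists. For 6 h against control, 30 h against control and 30 h against 6 h it gave 0.24, 0.0019 and -0.24 in gCap, 0.10, -0.073 and -0.17 in aCap, 0.074, -0.39 and -0.46 in artery and 0.52, 0.49 and -0.028 in vein barcodes, so that the sign of all 3 aCap values and of artery at 6 h against control turned. Size factors gave 0.10 and -0.11 for 30 h against control and against 6 h in gCap, and leaving out the 1% of barcodes with the most class II UMIs gave -0.056 for aCap at 30 h against control.

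Shares of barcodes with a UMI depend on depth. In the control, 6 h and 30 h libraries they were, unthinned, 66.3%, 67.7% and 64.6% in all endothelial, 72.5%, 75.3% and 74.9% in gCap and 38.8%, 35.6% and 34.2% in aCap barcodes, and thinned to 4000 UMIs 55.2%, 58.2% and 54.6%, 62.8%, 65.5% and 63.9%, and 20.3%, 20.5% and 20.3%. Leaving out Clec9a and Zbtb46 from the exclusion, summing without Cd74, estimating free RNA from 1 marker and restricting to gCap barcodes were added after seeing the data. Ciita has 667 to 1242 UMIs per library and at most 125 in a class other than gCap, which limits what its class values can show.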

Other observations

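The barcodes that passed the endothelial gate but no class gate (587, 793 and 729 in the control, 6 h and 30 h libraries) were shallow, with median depths of 2517, 2765 and 2771 UMIs, and held the 7 genes at 298, 411 and 240 CPM. Their Cd74 was at 125, 212 and 54.1 CPM. The Lyz2 and Cd79a exclusion took out 2282, 2260 and 1695 barcodes that otherwise met the gate, and with them kept the log2 ratio of Cd74 at 30 h to control was -0.64. Lyz2 is also made by surfactant-producing cells of the lung.

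The barcodes removed as doublets by score held more class II UMIs than those kept, with means of 4.98, 6.55 and 5.88 against 3.92, 4.63 and 4.13 per endothelial barcode of the 3 libraries. These means are of raw UMIs, not scaled by depth, so they do not show a higher class II share. Without the removed barcodes the log2 ratio of Cd74 at 30 h to control was -0.86.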
